A study of Mus musculus with 4 samples.

Results

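The ATF4 response and the cytosolic aminoacyl-tRNA synthetases were followed through 45 genes in HT-22 cells, an immortalized cell line from mouse hippocampus, after induction of Pja2. The genes were chosen by symbol from a list of the pathway: 20 cytosolic synthetase genes, 7 genes of serine, asparagine and related amino acid synthesis, 4 genes of folate-dependent carbon transfer, and 14 factors of the ATF4 pathway. All 45 had a row in the deposited table of 24689 genes, and all 45 were among the 13276 genes tested, those whose library average reached 1 CPM. CPM is a gene's reads scaled to a fixed library total, so that libraries of different depth can be compared. RNA sequencing covered 4 libraries. The 2 libraries of induced cells, titled Pja2-pb, came from cells with inducible sense Pja2 (Pja2/+), and the labels explain neither the tag pb nor the means of induction. The 2 control libraries are called uninduced in the characteristics and WT in the titles, so that whether both groups came from the same line is not known. All cells were at passages 21 to 24, and the labels do not say whether replicates came from separate cultures. The p-values therefore cover the spread between these samples, which may be technical.

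ATF4 is a transcription factor of the integrated stress response. When a kinase such as PERK (Eif2ak3), which senses unfolded protein in the endoplasmic reticulum, or GCN2 (Eif2ak4), which senses uncharged tRNA, phosphorylates the initiation factor eIF2α, general translation falls and the Atf4 messenger is translated more. ATF4 protein then activates genes that make, import and load amino acids, among them many cytosolic synthetases, together with feedback genes such as Trib3, Chac1 and the phosphatase subunit gene Ppp1r15a. Because ATF4 is controlled largely through translation, its messenger level is not a measure of its protein.

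ATF4 paired with a C/EBP partner binds a composite element whose core is TGATGNAA. Both strands of a promoter window, 250 bases before to 50 bases after each start site, were searched for these letters (TTNCATCA on the opposite strand) in RefSeq promoters of build GRCm38.p6. Windows were found for 35 of the 45 genes, and 11 of these, or 31.4%, held the letters, against 4.51% of 27025 genes with a window. The 11 were Aars, Gars, Iars, Tars and Yars among the synthetases, and Asns, Chac1, Got1, Nupr1, Pycr1 and Trib3. The letters describe the windows and do not show binding in these cells. The members were picked as genes of the ATF4 pathway and synthetases, so these shares are description and test nothing. The 250 bases before the Asns start site are printed because this enzyme gene carries a well studied element and lay nearest to the threshold among members that did not pass it. For comparison, 5 shorter stretches are printed from windows that hold the letters before the start site, with the matched letters in capitals, each written 5′ to 3′ along the gene's strand.

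Asns, chr6:7693210-7693459, minus strand: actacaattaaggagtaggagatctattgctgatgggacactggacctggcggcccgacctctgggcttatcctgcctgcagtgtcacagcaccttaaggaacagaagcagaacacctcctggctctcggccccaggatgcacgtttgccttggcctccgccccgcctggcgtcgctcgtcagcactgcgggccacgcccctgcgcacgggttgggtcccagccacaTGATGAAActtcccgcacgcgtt
Pycr1, chr11:120643830-120643865, minus strand: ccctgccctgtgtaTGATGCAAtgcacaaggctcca
Chac1, chr2:119351035-119351070, plus strand: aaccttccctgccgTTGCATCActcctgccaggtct
Nupr1, chr7:126625559-126625594, minus strand: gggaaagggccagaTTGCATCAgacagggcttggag
Got1, chr19:43524686-43524721, minus strand: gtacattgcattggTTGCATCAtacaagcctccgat
Gars, chr6:55037957-55037992, plus strand: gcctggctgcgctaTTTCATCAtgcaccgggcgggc

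The 11 members with the letters had log2 fold changes from -0.45 (Asns) to 0.60 (Nupr1), with a median of -0.03 and 8 below 0. The 24 members whose window lacked them had a median of -0.05, with 15 below 0.

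The induced libraries held 30080376 and 35262653 reads in genes and the control libraries 25787452 and 31010351. Pja2 had 54830 and 54244 normalized reads in induced cells, against 6167 and 5881 in controls, which matched the labels. Normalized reads are read counts after the authors' scaling between libraries. Of the 10 neuronal markers listed, 7 had a row, and Syt1, Nefl, Dcx and Stmn2 stood at 0 to 16.3 normalized reads in every library, while Tubb3, Syn1 and Eno2 were present. Exons of Syn1 overlap those of Araf and the library kit does not mark the strand, so some Syn1 reads may belong to Araf. The fibroblast genes Col1a1 and Col1a2 had at least 70004 normalized reads in every library, so the label of hippocampal neuron was only partly borne out. Among the markers tested, Acta2 was called higher and Col3a1 and Dcn lower in induced cells, all 3 from the fibroblast list of 7. Summed over its list, the level in the induced libraries was 162 to 174 CPM for neuronal markers (controls 177 to 179), 9646 to 9650 for fibroblast markers (controls 9892 to 11410), 105 to 131 for astrocyte markers (controls 92.5 to 104), 50.7 to 53.6 for microglial markers (controls 58.2 to 69.2), 2.72 to 3.32 for oligodendrocyte markers (controls 1.2 to 2.26) and 0.482 to 0.698 for endothelial markers (controls 0.774 to 0.970). The astrocyte sum was mostly Slc1a3, with 3426 and 4237 normalized reads in induced cells, against 3302 and 2956 in controls, while Aldh1l1 of the same list had 5.44 and 14.8 in induced cells, against 57.8 and 65.3 in controls (adjusted p = 0.0618). The microglial sum was mostly Tmem119, with 1579 and 1644 normalized reads in induced cells, against 2184 and 1830 in controls. Aif1 of the same list lay the other way, with 73.9 and 91.8 in induced cells, against 46.5 and 67.4 in controls. Cx3cr1 and Csf1r were at no more than 8.35 in every library. Slc1a2 and Kdr were at 0 in all libraries but induced replicate 2, and S100b was at 0 in both controls. The part of these markers in the results was not tested.

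Over the 45 genes, 1 passed the test as lower in induced cells, the tryptophanyl-tRNA synthetase gene Wars, and 0 as higher. The test was limma on the deposited log2 values, with p-values adjusted over all 13276 genes and a threshold of 0.05. By the same rule 1.34% of all tested genes were lower and 2.08% higher, against 2.22% and 0 of the members, and in either direction 3.42% of all tested genes were called, against 2.22% of the members. These shares lie near the background. At an unadjusted p under 0.05 there were 10 lower and 3 higher members, 28.9% together against 19.1% of all tested genes, and limma voom on the read counts called the same numbers of members, 1 and 0. Both induced libraries lay below both controls for 17 members, or 37.8%, a position held by 25.1% of all tested genes, and above both for 7, or 15.6%, against 26.2%. The groups did not overlap for 24 members in all, or 53.3%, against 51.3% of all tested genes. The median log2 fold change, given throughout as induced minus control, was -0.04 for the members and 0.00 for all tested genes.

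**Figure D1:**
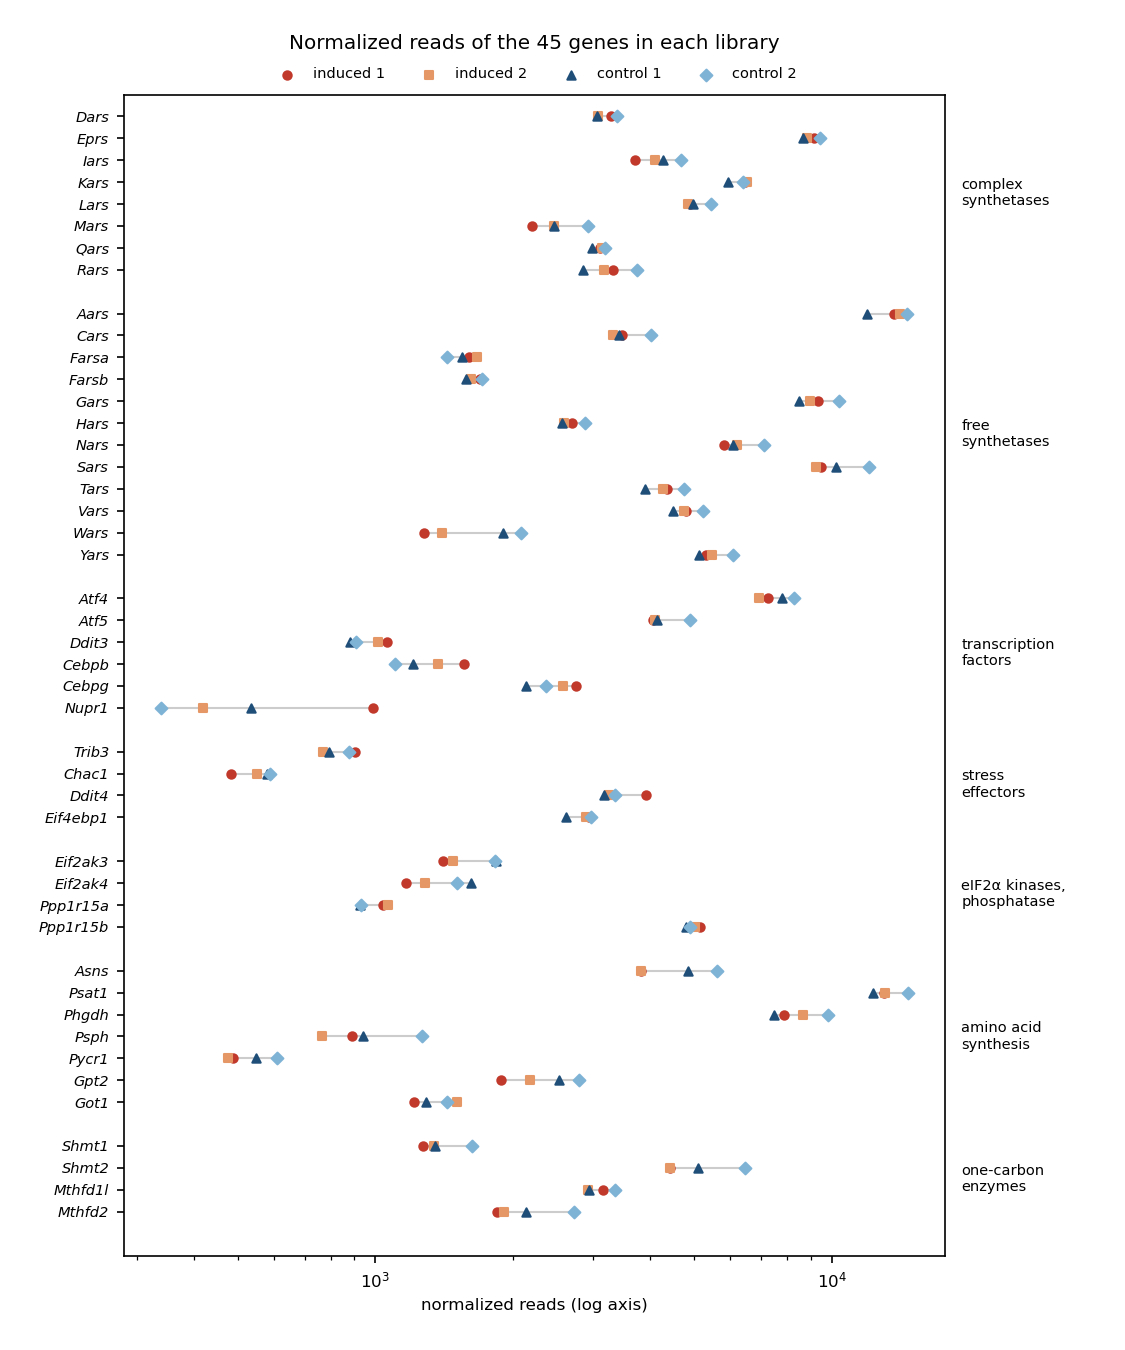
Normalized reads of each of the 45 genes (horizontal log axis) in the 2 induced and 2 control libraries, 1 symbol per library, grouped by role. The induced libraries of Wars, at 1277 and 1399, stand apart to the left of the controls at 1905 and 2081, whereas for Gars, Rars, Tars and Vars, among others, both induced libraries lie between the controls.

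The cytosolic synthetases join each amino acid to its tRNA. Wars, on chromosome 12, had 1277 and 1399 normalized reads in induced cells, against 1905 and 2081 in controls. The groups did not overlap, and Wars fell to 0.671 of the control mean (log2 fold change -0.57, SE 0.09, limma adjusted p = 0.0336). Wars is also known as a gene strongly induced by interferon gamma. The 95% interval of the log2 fold change ran from -0.79 to -0.36, and 3.59% of all tested genes had a value as low or lower. Leaving out any of the 4 libraries ended the call (adjusted p = 0.0567 to 0.103), as did testing without the filter on low values (adjusted p = 0.0731), while the log2 fold change stayed between -0.64 and -0.51. In bulk RNA, fewer cells expressing a gene and less RNA per cell cannot be told apart.

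The other 19 synthetases did not pass, and their log2 fold changes ran from -0.25 to 0.14 with a median of -0.02. Of these 19, 1 had an unadjusted p under 0.05, or 5.26%, against 19.1% of all tested genes. Sars, which charges serine tRNA and had the second largest change of the group, had 9458 and 9263 normalized reads in induced cells, against 10231 and 12089 in controls (log2 fold change -0.25, adjusted p = 0.222). The induced libraries of Sars agreed closely and lay below both controls, which differed more from each other. Aars, the alanyl-tRNA synthetase gene and the most abundant of the family in reads, had 13722 and 14126 in induced cells, against 11974 and 14599 in controls (adjusted p = 0.736). Both induced libraries of Aars lay inside the span of the controls. Farsa, the catalytic subunit gene of phenylalanyl-tRNA synthetase, had the highest log2 fold change of the family at 0.14 (95% interval -0.06 to 0.34, adjusted p = 0.408), and its partner subunit gene Farsb had 0.01 (-0.19 to 0.21, adjusted p = 0.943). Per kilobase of exon, Farsa stood to Farsb at 1.14 and 1.24 in induced cells, against 1.18 and 1.01 in controls, ratios that overlap.

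Of the synthetases, Dars, Eprs, Iars, Kars, Lars, Mars, Qars and Rars, form the multi-synthetase complex with scaffold proteins; 0 of these 8 passed in limma, 0 also at an unadjusted p under 0.05. Mars, the methionyl-tRNA synthetase gene, had 2206 and 2459 normalized reads in induced cells, against 2461 and 2924 in controls (log2 fold change -0.20, adjusted p = 0.368). Iars, for isoleucine, had 3703 and 4107 in induced cells, against 4268 and 4665 in controls (-0.19, adjusted p = 0.282). For both genes the induced libraries were the lower, for Mars by less than the gap between the controls. Eprs, a fused enzyme for glutamate and proline, had 9152 and 8809 in induced cells, against 8669 and 9415 in controls (adjusted p = 0.956). Kars, for lysine, had 6456 and 6536 in induced cells, against 5932 and 6400 in controls (adjusted p = 0.578). Eprs overlapped between the groups and Kars was slightly above both controls. The complex had a median log2 fold change of -0.02 and the 12 free synthetases, Wars included, of -0.04. The remaining members of the family, Cars, Dars, Gars, Hars, Lars, Nars, Qars, Rars, Tars, Vars and Yars, had log2 fold changes from -0.13 (Nars) to 0.02 (Qars), and of these 11 only Lars did not overlap between the groups, with induced cells below.

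Set against exon length, the synthetases differed more from each other than between conditions. Gars, for glycine, had the highest level with 3925 and 3773 normalized reads per kilobase of exon in induced cells, against 3555 and 4365 in controls. Wars had the lowest, with 445 and 488 in induced cells, against 664 and 725 in controls. In the controls, Farsb at 717 and 780 and Farsa at 846 and 784 stood next above Wars; the spans of Wars and Farsb overlapped there, and in induced cells, where Farsb had 772 and 738, they did not. From Hars to Tars, places 9 to 15 of the order, control means lay between 1367 and 1079 per kilobase, and the control libraries of neighbouring genes overlapped. Exon lengths came from a later annotation than the mm9 build named for the study and set only the order between genes.

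**Figure D2:**
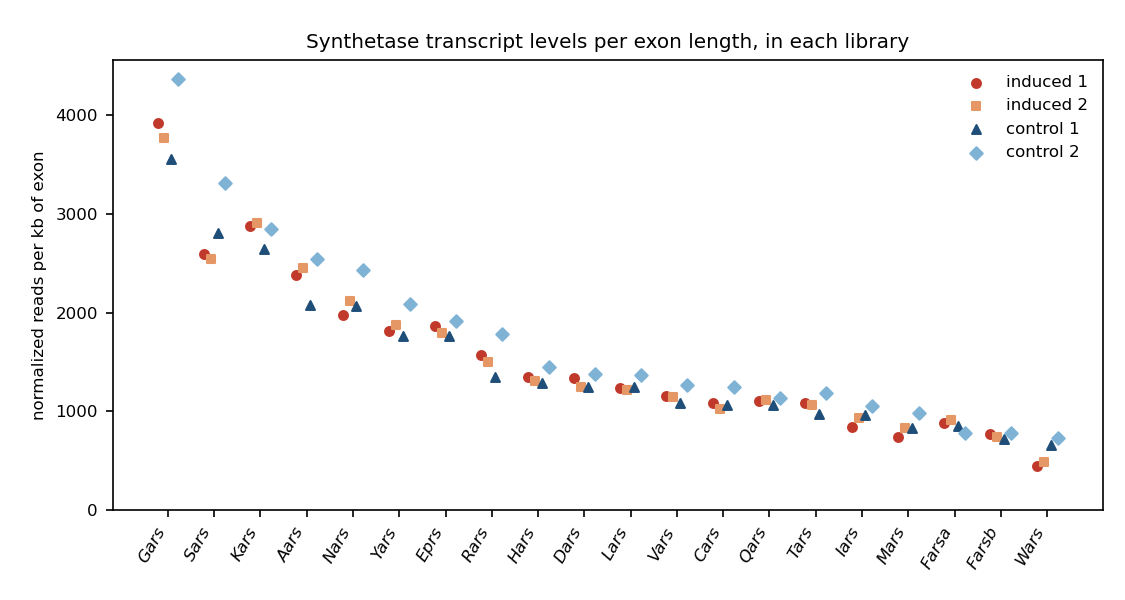
Normalized reads per kilobase of exon (vertical axis, from 0) of the 20 synthetases in each library, ordered by the control mean. Gars stands highest and Wars lowest, and control replicate 2 is above control replicate 1 for every gene but Farsa.

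The controls differed from each other across the family. Control replicate 2 was above control replicate 1 for 19 of the 20 synthetases and for 40 of the 45 members, against 51.5% of all tested genes. The median log2 ratio of control replicate 2 to control replicate 1 was 0.19 for the synthetases and 0.01 for all tested genes, while that of induced replicate 2 to induced replicate 1 was -0.02 and 0.01. The synthetases summed to 3046 and 3051 CPM in induced cells, against 2974 and 3415 in controls, so that the induced libraries lay between the controls (exact permutation test over libraries, two-sided p = 1, where 2 against 2 can give no less than 0.333). The median log2 fold change of the synthetases was accordingly -0.15 without control replicate 1 and 0.06 without control replicate 2. Whatever set the controls apart was not tested.

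Of the transcription factors of the pathway, 0 of 6 passed in limma. At an unadjusted p under 0.05 there were 1 lower and 3 higher, 66.7% together against 19.1% of all tested genes. The 6 centred on a log2 fold change of 0.23 (median). Without induced replicate 1 this median was 0.08, with 3 of the 6 above 0. Atf4 had 7252 and 6946 normalized reads in induced cells, against 7801 and 8267 in controls (log2 fold change -0.18, 95% interval -0.34 to -0.02, adjusted p = 0.218). Atf5, a related factor that is also translated under stress, had 4049 and 4107 in induced cells, against 4133 and 4892 in controls (-0.14, adjusted p = 0.468). Both Atf4 and Atf5 lay below the controls without passing. The C/EBP family partners of ATF4 lay the other way. Cebpb had 1560 and 1373 in induced cells, against 1211 and 1106 in controls (0.34, 95% interval 0.09 to 0.59, adjusted p = 0.155). Cebpg had 2748 and 2582 in induced cells, against 2135 and 2366 in controls (0.24, 95% interval 0.04 to 0.45, adjusted p = 0.195). Ddit3, which encodes the factor CHOP, had 1058 and 1011 in induced cells, against 878 and 909 in controls (0.21, adjusted p = 0.261). For these 3 of the 6 genes, or 50%, both induced libraries were above both controls, against 26.2% of all tested genes. None of the 3 passed. The position below both controls, held by Atf4 and Atf5, made up 33.3% of the 6, against 25.1% of all tested genes. Exons of Ddit3 overlap those of Mars on chromosome 10, exons of Cebpb, Cebpg and Atf5 also overlap other genes, and the library kit does not mark the strand, so some reads may belong to a neighbour. Nupr1, a small stress-induced chromatin protein, had 988 and 418 in induced cells, against 533 and 339 in controls. The gap between its 2 induced libraries was wider than that between the group means (log2 fold change 0.60, 95% interval -0.45 to 1.64, adjusted p = 0.50), and without induced replicate 1 the log2 fold change was -0.02.

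The stress effectors act downstream of ATF4. Of 4 genes 0 passed in limma, and 0 had an unadjusted p under 0.05. Trib3, a pseudokinase that restrains ATF4, had 901 and 767 normalized reads in induced cells, against 791 and 876 in controls (log2 fold change -0.00, 95% interval -0.29 to 0.29, adjusted p = 0.995). Chac1, which breaks down glutathione, had 483 and 551 in induced cells, against 578 and 589 in controls (-0.18, 95% interval -0.46 to 0.10, adjusted p = 0.451). The upper bounds correspond to 1.22-fold for Trib3 and 1.07-fold for Chac1. Ddit4, an inhibitor of mTORC1, had 3926 and 3258 in induced cells, against 3170 and 3356 in controls (0.13, adjusted p = 0.536). Eif4ebp1, a repressor of cap-dependent translation, had 2945 and 2896 in induced cells, against 2613 and 2964 in controls (0.07, adjusted p = 0.696). Trib3, Ddit4 and Eif4ebp1 overlapped between the groups, and Chac1 was below.

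Of the 4 members that act on eIF2α itself, the kinase genes Eif2ak3 and Eif2ak4 had log2 fold changes below 0 and the phosphatase subunit genes Ppp1r15a and Ppp1r15b above 0. In limma 0 passed, and 2, or 50%, had an unadjusted p under 0.05, both lower, against 19.1% of all tested genes. The groups did not overlap for any of the 4, as for 51.3% of all tested genes. The other eIF2α kinase genes, which are not members, lay above 0. Eif2ak1, the heme-regulated kinase gene, had 2210 and 2280 normalized reads in induced cells, against 2040 and 2100 in controls (log2 fold change 0.12, adjusted p = 0.416). Eif2ak2, the gene of the RNA-activated kinase PKR, had 3741 and 3878 in induced cells, against 3379 and 3293 in controls (0.19, adjusted p = 0.190). Kinase genes therefore lay on both sides of 0, and neither of these passed; Eif2ak1 and Eif2ak2 were named after their values were seen. Eif2ak3, the PERK gene, had 1404 and 1479 normalized reads in induced cells, against 1835 and 1831 in controls (log2 fold change -0.35, 95% interval -0.53 to -0.16, adjusted p = 0.0729). Eif2ak4, the GCN2 gene, had 1165 and 1282 in induced cells, against 1618 and 1513 in controls (-0.36, 95% interval -0.58 to -0.14, adjusted p = 0.107). The controls of Eif2ak3 were nearly equal. For Eif2ak4 control replicate 1 was the higher, whereas control replicate 2 was the higher for 19 of the 20 synthetases. Ppp1r15a, which encodes the stress-induced phosphatase subunit GADD34, had 1037 and 1066 in induced cells, against 927 and 928 in controls (0.18, adjusted p = 0.305). Ppp1r15b, the constitutive subunit gene, had 5155 and 5016 in induced cells, against 4795 and 4891 in controls (0.07, adjusted p = 0.573). Across all 11 other settings the adjusted p of Eif2ak3 ran from 0.0689 to 0.303 and that of Eif2ak4 from 0.102 to 0.377, with log2 fold changes no higher than -0.31 and -0.29.

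**Figure D3:**
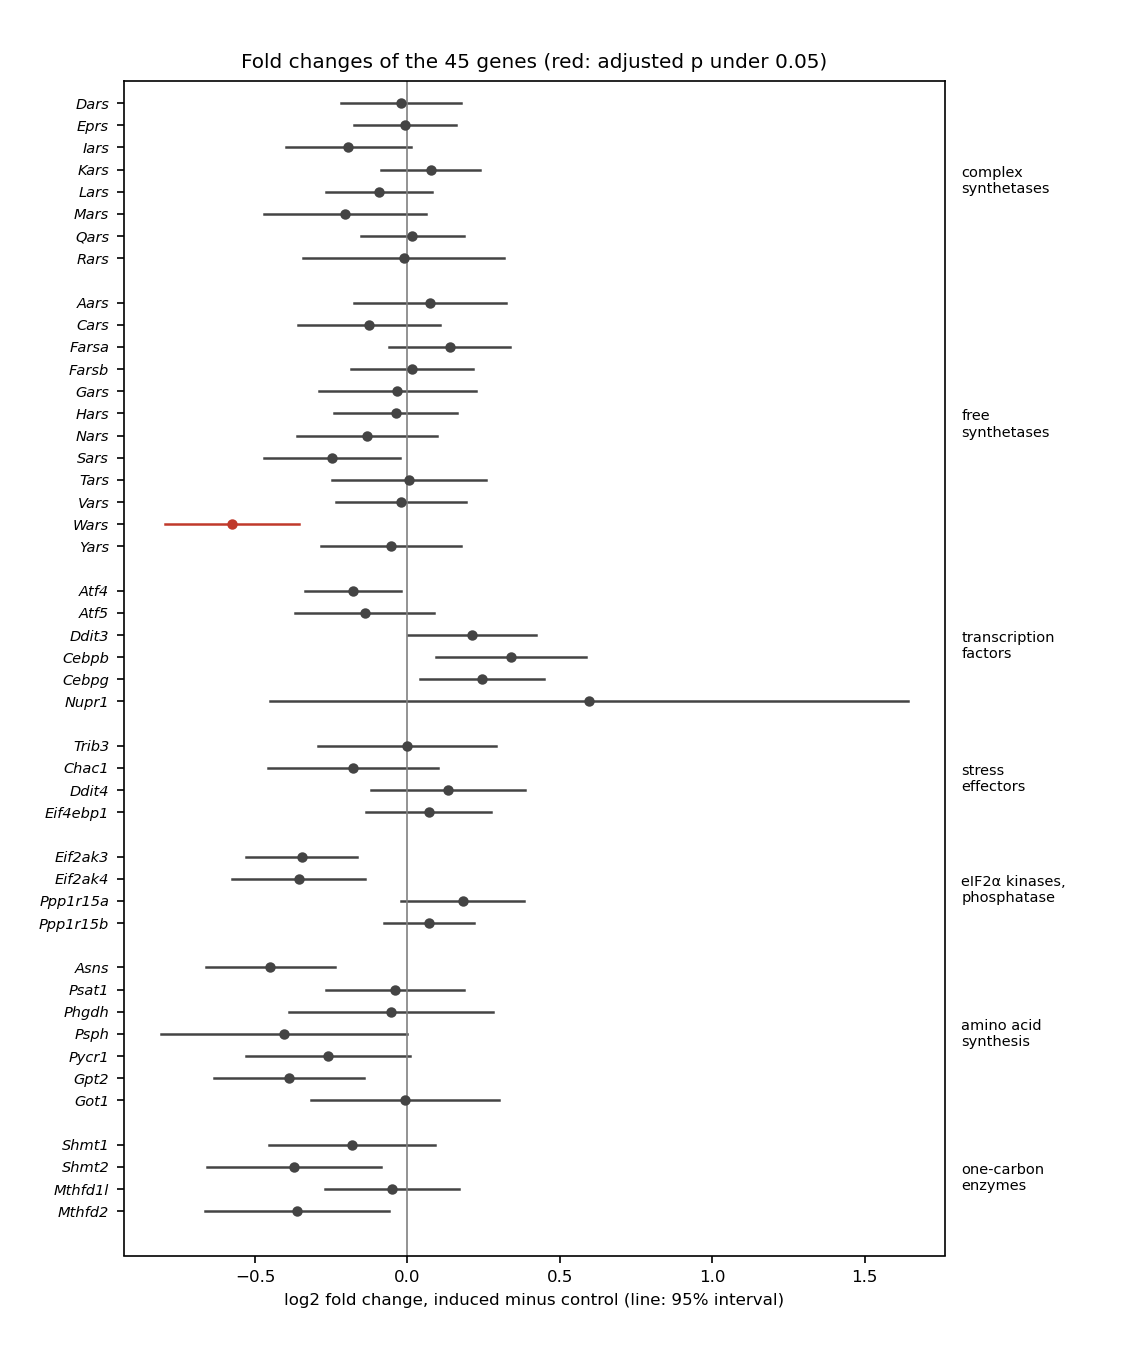
Log2 fold change of each of the 45 genes, induced minus control (points), with its 95% interval from limma (lines), grouped by role. Wars, in red, is the 1 gene past the adjusted threshold, and the intervals of Asns, Gpt2, Psph, Shmt2, Mthfd2, Sars, Atf4, Eif2ak3 and Eif2ak4 lie below 0 without passing it. Those of Cebpb, Cebpg and Ddit3 lie above 0, also without passing.

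The 11 member enzymes of amino acid synthesis and folate-dependent carbon transfer had log2 fold changes below 0, while 49.6% of all tested genes did. Of these 11 genes 0 passed in limma, and 5, or 45.5%, had an unadjusted p under 0.05, all lower, against 19.1% of all tested genes in either direction. Both induced libraries lay below both controls for 7, or 63.6%, against 25.1% of all tested genes. Asns, which makes asparagine and is a standard ATF4 target, had 3816 and 3829 normalized reads in induced cells, against 4854 and 5615 in controls. The induced libraries of Asns were nearly equal and lay below both controls, with a log2 fold change of -0.45 (SE 0.09, 95% interval -0.66 to -0.24, adjusted p = 0.0553). Asns passed in 1 of the 11 other settings, without control replicate 1 (adjusted p = 0.0341), and 5.42% of all tested genes had a log2 fold change as low or lower.

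Serine is made from a glycolytic intermediate by Phgdh, Psat1 and Psph in turn. Phgdh had 7869 and 8660 normalized reads in induced cells, against 7467 and 9832 in controls (log2 fold change -0.05, adjusted p = 0.865). Psat1 had 13055 and 13092 in induced cells, against 12330 and 14676 in controls (-0.04, adjusted p = 0.847). Psph had 887 and 763 in induced cells, against 939 and 1265 in controls (-0.41, 95% interval -0.81 to -0.00, adjusted p = 0.261). Phgdh and Psat1 overlapped between the groups and Psph was below, with exons that overlap Cct6a. Among the other enzymes, the mitochondrial alanine transaminase gene Gpt2 had a log2 fold change of -0.39 (adjusted p = 0.115), the proline synthesis gene Pycr1 of -0.26 (adjusted p = 0.273) and the cytosolic aspartate transaminase gene Got1 of -0.01 (adjusted p = 0.976). Gpt2 and Pycr1 did not overlap between the groups, with induced cells below, and Got1 did.

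Serine hydroxymethyltransferases pass a carbon from serine to folate, and the Mthfd enzymes carry it on. Shmt2, the mitochondrial enzyme gene, had 4429 and 4431 normalized reads in induced cells, against 5102 and 6447 in controls (log2 fold change -0.37, 95% interval -0.66 to -0.09, adjusted p = 0.168). Mthfd2, its mitochondrial partner, had 1843 and 1915 in induced cells, against 2142 and 2720 in controls (-0.36, 95% interval -0.66 to -0.06, adjusted p = 0.197). Both mitochondrial genes lay below both controls in induced cells, and without control replicate 1 Shmt2 passed (adjusted p = 0.0342). Exons of Shmt2 overlap those of Ndufa4l2, and exons of Shmt1 those of Smcr8, so some reads may belong to a neighbour. Mthfd1l, which releases formate from mitochondria, had 3149 and 2918 in induced cells, against 2944 and 3347 in controls (-0.05, adjusted p = 0.805). Mthfd1, the cytosolic folate enzyme gene, is not a member and lay the other way, with 2765 and 2745 in induced cells, against 2235 and 2620 in controls (0.19, 95% interval -0.04 to 0.42, adjusted p = 0.342). Mthfd1 was named after its values were seen. Shmt1, the cytosolic counterpart of Shmt2, had a log2 fold change of -0.18 (adjusted p = 0.430). The 11 enzymes summed to 1220 and 1257 CPM in induced cells, against 1280 and 1542 in controls, which do not overlap (exact permutation test, two-sided p = 0.333, the smallest that 2 against 2 can give). The 7 genes of amino acid synthesis alone summed to 893 and 933 CPM in induced cells, against 924 and 1109 in controls, which overlap. The 4 folate enzymes alone summed to 327 and 324 CPM in induced cells, against 356 and 433 in controls, which do not. Control replicate 2 was above control replicate 1 for 11 of the 11. Without control replicate 2, 7 of the 11 were below 0 with a median log2 fold change of -0.19, against -0.33 without control replicate 1 and -0.26 with all libraries.

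**Figure D4:**
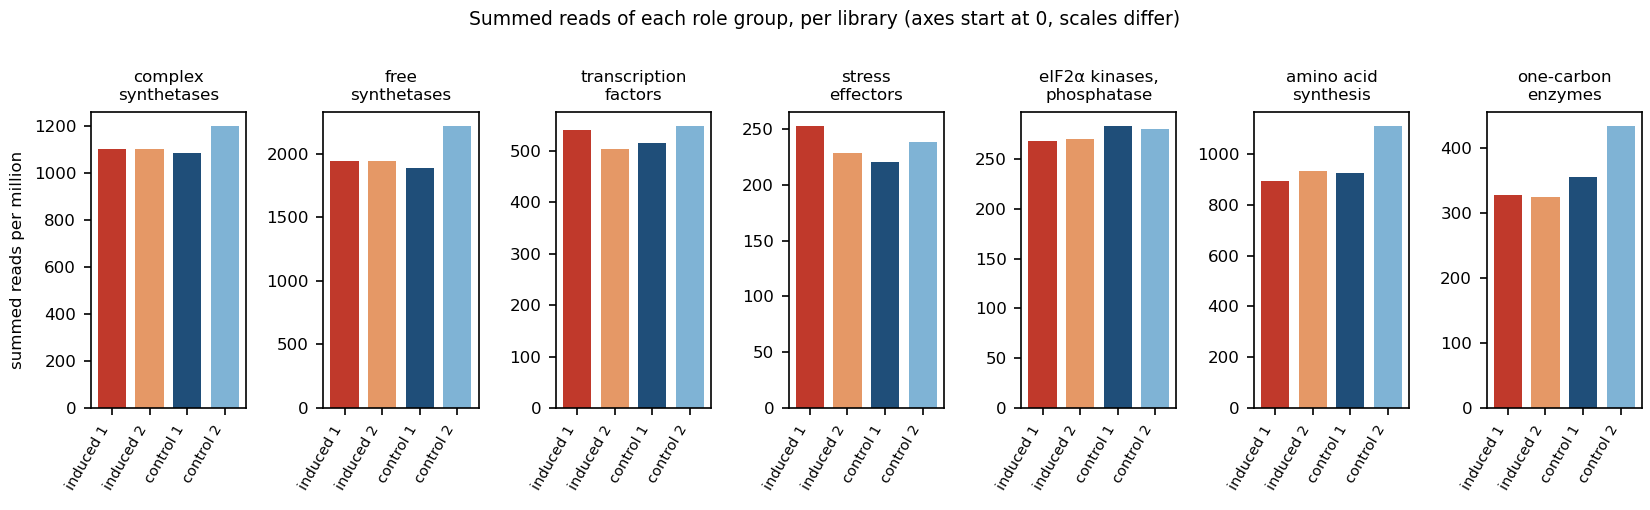
Summed CPM (vertical axes from 0, scales differ) of the 7 role groups in each library, induced libraries first. For both synthetase groups the induced bars lie between the controls, and for the folate enzymes (the panel titled one-carbon enzymes) both induced bars, at 327 and 324, are under the controls at 356 and 433. For amino acid synthesis the induced bars, at 893 and 933, overlap the controls at 924 and 1109.

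Other genes of the pathway were read from lists beside the members. Of 30 tested ATF4 targets outside the member list, 3 fell (10%, against 1.34% of all tested genes) and 1 rose (3.33%, against 2.08%). The other 26 did not pass, and the list's median log2 fold change was -0.14. Both induced libraries lay below both controls for 18 of the 30, or 60%, against 25.1% of all tested genes. They lay above both for 6, or 20%, against 26.2%. The list was chosen with earlier results of these data known. Slc7a11, the cystine transporter gene, had 75.03 and 57.5 normalized reads in induced cells, against 570 and 660 in controls (log2 fold change -3.20, SE 0.19, adjusted p = 0.00363), and it passed in all 11 other settings. Aldh1l2, which oxidizes folate-bound carbon in mitochondria, had 4237 and 4373 in induced cells, against 6013 and 6607 in controls (-0.55, SE 0.07, adjusted p = 0.0226). For both genes the groups did not overlap. Ndrg1, a stress-responsive gene, fell by 0.49 on the log2 scale (adjusted p = 0.0378), and Sesn2, a leucine sensor that restrains mTORC1 and is also a p53 target, rose (0.44, adjusted p = 0.0402). Leaving out a library ended the calls of Sesn2 (any of the 4, adjusted p = 0.0759 to 0.160), Ndrg1 (control replicate 1, control replicate 2 or induced replicate 2, 0.0631 to 0.118) and Aldh1l2 (induced replicate 1 or induced replicate 2, 0.0647 and 0.0549). Testing without the filter also ended the calls of Sesn2, Ndrg1 and Aldh1l2 (0.0805, 0.0829 and 0.0523). The most abundant of that list were Slc38a2, with a log2 fold change of -0.09 (adjusted p = 0.467), and Got2, with -0.07 (adjusted p = 0.568).

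Of 14 other genes of the eIF2 machinery, Eif2b5, the catalytic subunit of the exchange factor that phosphorylated eIF2α inhibits, rose 1.32-fold, 0 fell and 13 did not pass. This 1 call was 7.14% of the list, against 2.08% of all tested genes called higher. Eif2b5 had 4119 and 4342 normalized reads in induced cells, against 3091 and 3301 in controls (log2 fold change 0.40, SE 0.07, adjusted p = 0.0434). Its call ended without any single library (adjusted p = 0.0647 to 0.178), as it did without the filter (0.0909). Both induced libraries were above both controls for 9 of these 14, or 64.3%, against 26.2% of all tested genes, and the list's median log2 fold change was 0.12. The list's highest reads were those of Eif2s3x, at a log2 fold change of 0.05 (adjusted p = 0.687), and Gcn1l1, at 0.12 (adjusted p = 0.475).

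The median log2 fold change was -0.00 over the 17 listed mitochondrial synthetases that have a separate gene, and 0 passed in limma. At an unadjusted p under 0.05 there was 1, or 5.88%, against 19.1% of all tested genes. Iars2, with the most reads, had -0.01 (adjusted p = 0.939), and Hars2, next in reads, had -0.07 (adjusted p = 0.711). The 17 listed genes summed to 424 and 428 CPM in induced cells, against 426 and 428 in controls. Of the 3 scaffold genes of the multi-synthetase complex 0 passed, and 0 had an unadjusted p under 0.05. Aimp1 had a log2 fold change of 0.04 (adjusted p = 0.898) and Aimp2 of -0.04 (adjusted p = 0.917). Of 16 genes of chaperones and the unfolded protein response 0 passed in limma, and their median log2 fold change was -0.03. At an unadjusted p under 0.05 there were 5 (2 lower, 3 higher), or 31.25%, against 19.1% of all tested genes. Hsp90b1, with the most reads, had 0.05 (adjusted p = 0.732), and Calr had 0.18 (adjusted p = 0.220).

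**Figure D5:**
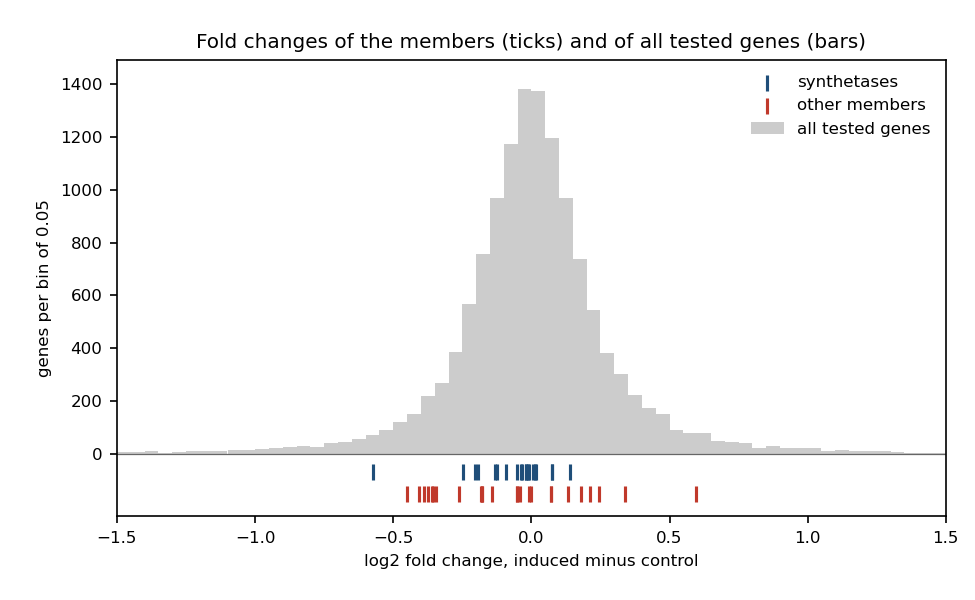
Number of tested genes per bin of log2 fold change, induced minus control (grey bars), with the 20 synthetases (blue ticks) and the 25 other members (red ticks) beneath; 121 genes lie outside the plotted range. All synthetases but Wars fall between -0.25 and 0.14, and the other members run from -0.45 to 0.60.

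The precision of these values covers the spread between these samples, which may be technical, so it does not bound the effect of induction. Each interval was also computed for its gene alone, while control replicate 2 was above control replicate 1 for 40 of the 45 members. The SE of the log2 fold change had a median of 0.09 over the members, each of which had at least 322 reads in every library. For 34 of the 45 members the 95% interval lay within 0.5 of 0 on the log2 scale, and for 13 it excluded 0 before adjustment.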

How the data were processed

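Trizol extraction and a TruSeq library kit, of a version that does not mark strand, were used per the labels' protocols. Per the submitters' processing notes, HISAT and Cufflinks were used with build mm9; their versions, the read counter and the scaling are not stated there. The deposited log2 values were found to be log2(normalized reads + 1): after removing the log, 100% lay within 0.01 of a whole number of reads, so reads could be recovered. They were tested as deposited with limma 3.58.1 (R 4.3.3), with a variance trend, no covariate, a minimum mean of 1 CPM and Benjamini-Hochberg adjustment, two-sided, as written in the design. The pseudocount of 1 matters little at the members' read numbers. The script was tested on simulated data. No library was a copy of its replicate (chi-square of counts 15.8 per gene in induced and 20.7 in control cells). Summed levels were tested by exact permutation over libraries. Exon lengths and overlaps are from GENCODE M21 (GRCm38), used by gene ID. Members and lists were chosen with earlier results of these data known. Values in every library are given for members past the threshold, 12 genes listed by name, and in each role group the 2 members of largest change and the 2 of highest reads; in other lists, log2 fold changes of the members past the threshold and the 2 of highest reads are given. Alternatives were the filter, the pseudocount, the scaling, voom, a replicate block and the omission of each library. Kars and Phgdh have processed pseudogenes, at no more than 8.35 normalized reads here. Atf3 is not analysed here.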

Additional observations from a re-analysis of the deposited data

How the results depend on the processing

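With 2 libraries a group the counts of calls moved with the processing. Genes called higher in induced cells numbered 276, against 100 without the filter on low values, 157 with a replicate block and 113 to 204 when a library was omitted. Genes called lower numbered 178, against 59, 104 and 78 to 136. Members called lower numbered 1, against 0 without the filter and 0 to 2 with a library omitted. Without control replicate 1, the 2 called were Asns and Shmt2, and Wars was not called. The median log2 fold change of the members was -0.167 to 0.0506 with a library omitted, and that of the synthetases -0.148 to 0.0575. Same-numbered samples did not deviate together over the tested genes (correlation -0.095). This correlation cannot show whether same-numbered samples were handled together, so pairing is not known. The replicate block ended the calls of Ndrg1, Sesn2 and Eif2b5 (adjusted p = 0.0725, 0.0815 and 0.0743), and that of Wars held (0.042). Of 495 member-by-setting values, 33 over 19 members changed sign. Scaling by the upper quartile gave 0.008 for Eprs, 0.004 for Rars, 0.016 for Trib3, 0.008 for Got1 and 0.006 for Iars2, and scaling by library totals -0.003 for Tars. Omitting a library changed the sign of some log2 fold changes, which then spanned these values: Aars (-0.068 to 0.218), Dars (-0.091 to 0.050), Eprs (-0.068 to 0.051), Farsb (-0.047 to 0.074), Gars (-0.182 to 0.114), Hars (-0.123 to 0.045), Qars (-0.033 to 0.064), Rars (-0.213 to 0.187), Tars (-0.136 to 0.146), Vars (-0.128 to 0.087), Yars (-0.177 to 0.070), Ddit4 (-0.002 to 0.267), Trib3 (-0.118 to 0.115), Psat1 (-0.167 to 0.085), Phgdh (-0.252 to 0.145), Mthfd1l (-0.143 to 0.042), Got1 (-0.163 to 0.145), Eif4ebp1 (-0.021 to 0.160), Nupr1 (-0.024 to 1.215), Iars2 (-0.025 to 0.003), Aimp1 (-0.154 to 0.237), Aimp2 (-0.252 to 0.170), Hsp90b1 (-0.002 to 0.095). The cause was not tested. An omission leaves a group with 1 library, which is assumed to vary like the other group.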
